A study of Homo sapiens with 6 samples.

Results

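The histone genes described here are the 77 protein-coding genes, of 58735 genes in the deposited tables, whose symbol marks a histone and whose counts over the 6 libraries sum to more than 0. Of them, 65 have a symbol that begins with HIST1H to HIST4H and are called HIST genes below. Most HIST genes are replication-dependent, and the genes lie on chromosomes 1, 6 and 12. The other 12 have a symbol that begins with H2AF, H3F3 or H1F and are called variant genes. The symbols fit 87 genes (71 HIST and 16 variant), and 10 of these had 0 counts in every library, namely HIST2H3PS2, HIST1H2AK, HIST1H2AD, HIST1H2AA, HIST1H3D, HIST1H2BA, H1FOO, H2AFB1, H2AFB2 and H2AFB3. Members were thus chosen by symbol and selected on the summed count over both groups, so their levels are given as a description, and the rule itself does not use the contrast between the groups. The set was nevertheless proposed with earlier results of these data known. Just inside that limit stood HIST1H2AM, with 1 count in all, and HIST1H1T, HIST2H3A and HIST2H3C, with 2 each. A count of 0 over the 111812519 counts of all libraries allows a level of up to 0.0268 CPM (3 counts over the total, counting error only).

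The cells were MOLT-3, an established human line of T-cell acute lymphoblastic leukaemia, and all libraries come from this single line. One group of 3 libraries was made from cells given DMSO, the solvent. The other group of 3 received compound E, which inhibits gamma-secretase, the protease that frees the active intracellular part of NOTCH receptors. The comparison was made to find genes controlled by NOTCH1 that bear on the response of leukaemia cells to chemotherapy. Neither the dose of compound E nor the time of exposure is given in the sources used here. Nothing in the labels says that replicates were separate cultures, and p-values therefore refer to the spread among these libraries alone, which may be technical.

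Histones are the proteins around which DNA is wound, an octamer of H2A, H2B, H3 and H4 in each nucleosome with H1 on the linker. Replication-dependent histone genes are transcribed in S phase by way of the coactivator NPAT, and their mRNAs end just after a conserved stem-loop, cut there by a complex with the U7 snRNP and bound by SLBP, with no poly(A) tail. Variant histones such as H3.3 and H2A.Z are made through the whole cell cycle from ordinary polyadenylated mRNAs and are placed by their own chaperones. RNA was captured here on oligo-dT beads, which hold poly(A). The counts of HIST genes are therefore counts of what came through that capture and not of the whole pool of their mRNA. The same limit holds for any variant mRNA without a tail.

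The stem-loop and the poly(A) signal were therefore looked up in the annotated transcripts of GENCODE 29 (GRCh38), which hold every gene of the tables. The letters searched for the stem-loop were GGCNCTTTTCAGNGCC, on the transcript's own strand, and the poly(A) signal was AATAAA or ATTAAA in the last 40 bases of at least 1 transcript. The stem-loop letters were found in 25 of 19922 protein-coding genes, and 23 of those 25 were HIST genes of this set. They are shown because their letters differ by class, with the 16 letters in capitals and 5 flanking bases on either side:
HIST3H2A: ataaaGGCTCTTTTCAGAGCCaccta
HIST3H2BB: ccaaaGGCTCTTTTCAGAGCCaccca
HIST1H2BG: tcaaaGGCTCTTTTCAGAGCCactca
HIST1H2AG: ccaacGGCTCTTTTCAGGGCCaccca
HIST4H4: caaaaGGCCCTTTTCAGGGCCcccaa
HIST1H4H: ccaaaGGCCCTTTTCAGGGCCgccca
The form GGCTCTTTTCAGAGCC was held by 17 genes, of which 6 code for H2A, 8 for H2B and 3 for H3. The form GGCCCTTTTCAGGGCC was held by 5 genes, and each of them codes for H4. HIST1H2AG alone had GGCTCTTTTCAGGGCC. For the other 42 HIST genes these letters were not in an annotated transcript. HIST1H2BK is among them, with an annotated length of only 381 bases. None of the 12 variant genes held the letters, and a stem-loop of other letters would not have been found. A poly(A) signal closed a transcript of 23 of the 65 HIST genes (35.4%), of 11 of the 12 variant genes and of 83.3% of all protein-coding genes. Both features were present in 16 HIST genes. Several HIST genes without a signal have short annotated lengths, such as 312 bases for HIST1H4K, 381 for HIST1H2BI and 411 for HIST1H3C. The search covered annotated transcripts only, so an absent signal or stem-loop says nothing of an mRNA end beyond them. In the transcript of HIST3H2A 390 bases follow the stem-loop, and in that of HIST3H2BB 1917 bases. Of the genes shown, HIST1H2BG lies at chr6:26215159-26216692 (minus strand), HIST1H2AG at chr6:27133042-27135291 (plus), HIST1H4H at chr6:26277609-26285638 (minus) and HIST4H4 at chr12:14767999-14771131 (minus).

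Total counts were 17316138 to 19845114 per library, and levels are given as CPM, which divides by the library total after TMM scaling, unless FPKM or raw CPM (with no TMM scaling) is named. The 10 markers of T lymphoblasts that were checked, CD3D, CD7 and RAG1 among them, had counts in every library. Of these markers 3 rose (RAG1, CD2 and DNTT) and 6 fell (CD7, PTCRA, CD3D, CD3E, CD5 and LCK). Of all genes tested 18.9% rose and 19.4% fell, and of those at or above 221 CPM 73.6% passed in either direction. Several of the markers lay below that level, and no share was taken at their own level. Their sum went from 2918 ± 35.1 CPM with DMSO to 3784 ± 50.1 CPM with compound E (SD, n = 3 each), and without RAG1, which went from 546 ± 8.09 to 1583 ± 34.9 CPM, from 2371 ± 27.7 to 2201 ± 25.4 CPM. Of 9 markers of other cell types, MPO (myeloid) and MS4A1 (B cell) were at 0 in every library and the list summed to between 23.6 and 26.7 raw CPM. Most of that sum came from CD79A (B cell), at 12.4 to 14.1 raw CPM, and COL1A1 (fibroblast), at 8.59 to 12.5 raw CPM. In bulk RNA, fewer cells of a type and less RNA per cell cannot be told apart.

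One library stood apart in the histone genes. In DMSO replicate 3 the 65 HIST genes summed to 112 raw CPM (95% exact binomial interval, Clopper-Pearson, 107 to 117), against 82.9 (78.9 to 87.0) and 87.6 (83.5 to 91.8) in the other DMSO libraries. These intervals cover counting error only. DMSO replicate 3 was the highest of the 6 libraries for 32 of the 65 HIST genes (49.2%), against 21.1% of the 24434 genes with a summed count in the same range. It was the highest for 25 of the 42 HIST genes without an annotated poly(A) signal and for 7 of the 23 with one. Among variant genes it was the highest for 1 of 12. As examples among genes with few counts, HIST1H1B, a linker histone gene, had 3, 1 and 25 counts with DMSO and 8, 18 and 4 with compound E, HIST1H3B had 8, 9 and 28 against 5, 12 and 6, and HIST2H3D had 3, 2 and 13 against 2, 3 and 1. HIST1H1B and HIST1H3B were picked as examples after their values were seen. SNORD3A, the U3 small nucleolar RNA, which has no poly(A) tail, moved in the same library: DMSO replicates 1 to 3 held 28, 24 and 237 counts of it, and the compound E replicates 21, 23 and 37. Of 19 such RNAs without a tail that were listed, 10 were at 0 in every library. The most abundant, RN7SL2 of the signal recognition particle, did not follow, at 453, 756 and 737 raw CPM with DMSO and 678, 524 and 459 with compound E. The part of tail-less RNA in the HIST values of this library was not tested. The sums, calls and medians of the HIST genes are given below with and without this library. It was set apart because HIST values were high in it. Leaving it out therefore moves HIST values of compound E over DMSO upwards by that choice, and the values without it are no separate evidence of a rise.

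HIST genes were low and variant genes high in these libraries. Genes were compared on the FPKM scale, which divides by the deposited gene length. That length, such as 381 bases for HIST1H2BK, 2303 for H2AFZ and 17730 for H2AFY, may differ from that of the mRNA in these cells. FPKM rankings between genes rest on it. The median level over the 65 HIST genes was 0.801 FPKM, with a range of 0.0108 to 34.6, and 26 of them reached 1 FPKM. The median over the 12 variant genes was 98.6 FPKM, with a range of 0.0130 to 189, and 9 reached 1 FPKM. Summed over the genes, HIST RNA per library was 0.117, 0.120 and 0.159 times variant RNA with DMSO and 0.107, 0.110 and 0.107 times with compound E. HIST genes made up 9.64% to 13.7% of all histone FPKM, the highest share being that of DMSO replicate 3.

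**Figure D1:**
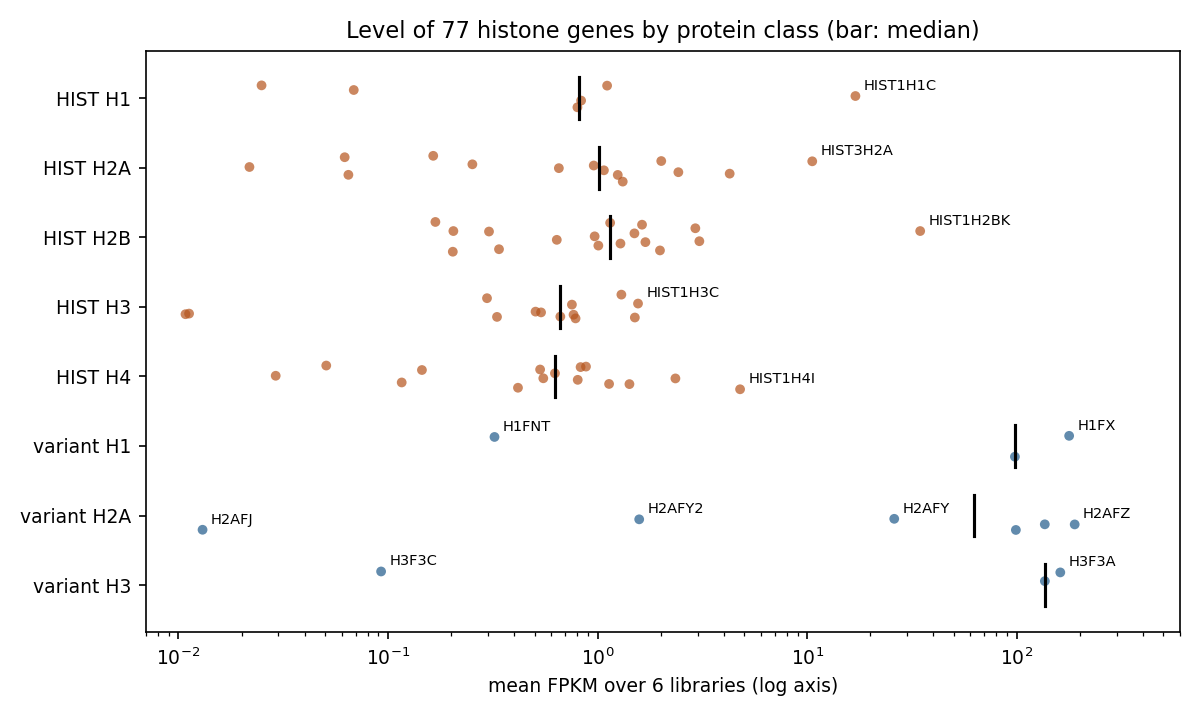
Mean FPKM over the 6 libraries of each of the 77 histone genes (points, log axis) by protein class, with the class median as a bar. HIST classes have medians of 0.626 to 1.15 FPKM, and only HIST1H2BK, HIST1H1C and HIST3H2A lie above 5 FPKM, while 8 of 12 variant genes do.

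A few HIST genes stood above the rest. HIST1H2BK, an H2B gene on chromosome 6 (27146418 to 27146798, minus strand), stood at 35.2, 39.9 and 35.3 FPKM with DMSO and at 29.7, 33.3 and 34.4 with compound E, and gave between 23.1% and 33.4% of all HIST FPKM in a library. HIST1H1C, the gene of linker histone H1.2, averaged 17.0 FPKM and HIST3H2A, an H2A gene, 10.6 FPKM. After these came HIST1H4I at 4.79, HIST2H2AC at 4.27, HIST1H2BJ at 3.06, HIST1H2BD at 2.93, HIST1H2AC at 2.43, HIST1H4K at 2.35 and HIST1H2AE at 2.01 FPKM. By class the medians were 0.818 FPKM for H1, 1.02 for H2A, 1.15 for H2B, 0.664 for H3 and 0.626 for H4, so the classes differed less than the genes within each of them. The 11 genes of the second cluster had a median of 0.0647 FPKM, the lowest of the 3 clusters with several genes. Genes with and without a poly(A) signal had medians of 0.768 and 0.803 FPKM.

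Several HIST values depend on how reads were assigned. Over 50% of the 50-base words of 13 of the 65 HIST genes also occur in another gene, among them HIST1H2BK (74.1%) and HIST1H4K (100%), and of the 10 genes at 0 this held for 7. Nothing in the sources says how reads with several matches were counted, so the levels of these genes are uncertain, and a gene at 0 may be one whose reads were not kept. The duplicated genes of the second cluster had almost no counts: HIST2H2AA3 and HIST2H2AA4 had 4 each, HIST2H3A and HIST2H3C 2 each, and HIST2H4A and HIST2H4B 6 and 11. Of the genes known from the testis, HIST1H1T had 2 counts, HIST1H2AA and HIST1H2BA had 0, and HIST3H3 had 41, spread as 7, 9 and 7 with DMSO and 8, 1 and 9 with compound E. No variant gene had over 50% of its words in another gene. Among the variant genes, H1FX, H2AFZ, H3F3A, H3F3B, H2AFY and H2AFY2 each overlap another annotated gene, and the use of the strand in counting is not given.

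The summed level of the HIST genes did not separate the groups, while that of the variant genes did. HIST genes summed to 82.9, 87.7 and 112 CPM with DMSO and to 92.1, 96.6 and 92.9 CPM with compound E. The groups overlap only through DMSO replicate 3, which lay above every compound E library, while the other DMSO libraries lay below every one. The means were 94.2 ± 15.6 and 93.9 ± 2.40 CPM (SD, n = 3 each), a ratio of 0.997 that becomes 1.10 without DMSO replicate 3. Variant genes summed to 3200.3, 3268 and 3221 CPM with DMSO and to 3668, 3688 and 3692 CPM with compound E, means of 3230 ± 34.6 and 3683 ± 13.0 CPM (SD, n = 3 each) and a 1.14-fold difference with no overlap. The 31 HIST genes with too few counts to be tested summed to 3.63, 4.89 and 11.3 CPM with DMSO and to 4.38, 5.03 and 4.14 CPM with compound E. Sums over genes were given no test.

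HIST genes with an annotated poly(A) signal and those without differed in their sums, in a split made after the values were seen. The 23 with a signal gave 35.8, 35.6 and 45.5 CPM with DMSO and 42.9, 45.4 and 41.9 CPM with compound E, which is 1.11 times as much with compound E and 1.21 times against DMSO replicates 1 and 2. The 42 without a signal gave 47.0, 52.1 and 66.4 CPM with DMSO and 49.2, 51.3 and 51.1 CPM with compound E, a ratio of 0.915, or 1.02 against DMSO replicates 1 and 2. With HIST1H2BK and HIST1H1C set aside, the other 40 without a signal were 1.56 times higher in DMSO replicate 3 than in the other DMSO libraries.

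**Figure D2:**
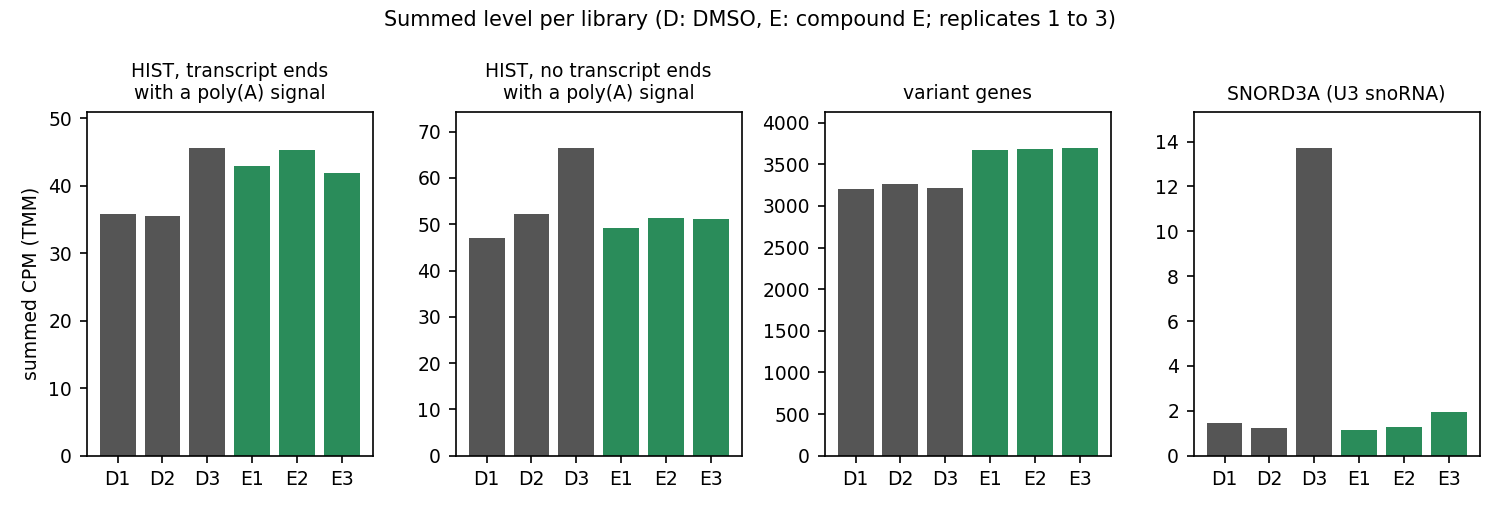
Summed CPM per library (bars, axis from 0) of HIST genes with and without an annotated poly(A) signal, of the variant genes and of SNORD3A, in DMSO replicates 1 to 3 (D) and compound E replicates 1 to 3 (E). DMSO replicate 3 is the highest bar in both HIST panels and, at 13.7 CPM, in the SNORD3A panel, while the variant panel shows the 3 compound E libraries above the 3 DMSO libraries.

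Compound E changed few HIST genes, in both directions. Of 65 HIST genes, 34 had enough counts for the edgeR quasi-likelihood test, and 7 of these (20.6%) passed at a Benjamini-Hochberg adjusted p under 0.05 over all 16926 genes tested, where 38.3% of all genes passed. Higher expression gives more calls, and among the 7771 genes in the same range of mean level, 0.487 to 13.3 CPM, the share was 22.5%. HIST1H2BC, HIST1H3G and HIST1H2AG rose, where 18.9% of all genes and 8.08% of those of like level did. HIST3H2A, HIST3H2BB, HIST1H2BI and HIST1H2BG fell, where 19.4% and 14.4% did. The groups did not overlap for 10 of the 34, against 46.8% of all genes and 33.0% of those in the same range. The median log2 fold change was 0.12 over the 34, with 19 above 0, and -0.0034 over all genes. Without DMSO replicate 3, a library set apart for its high HIST values, the median over the 34 was 0.34, with 27 above 0. The median over all genes of that fit was 0.0012. The shares of HIST genes called and without overlap were thus near those of genes of like level.

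**Figure D3:**
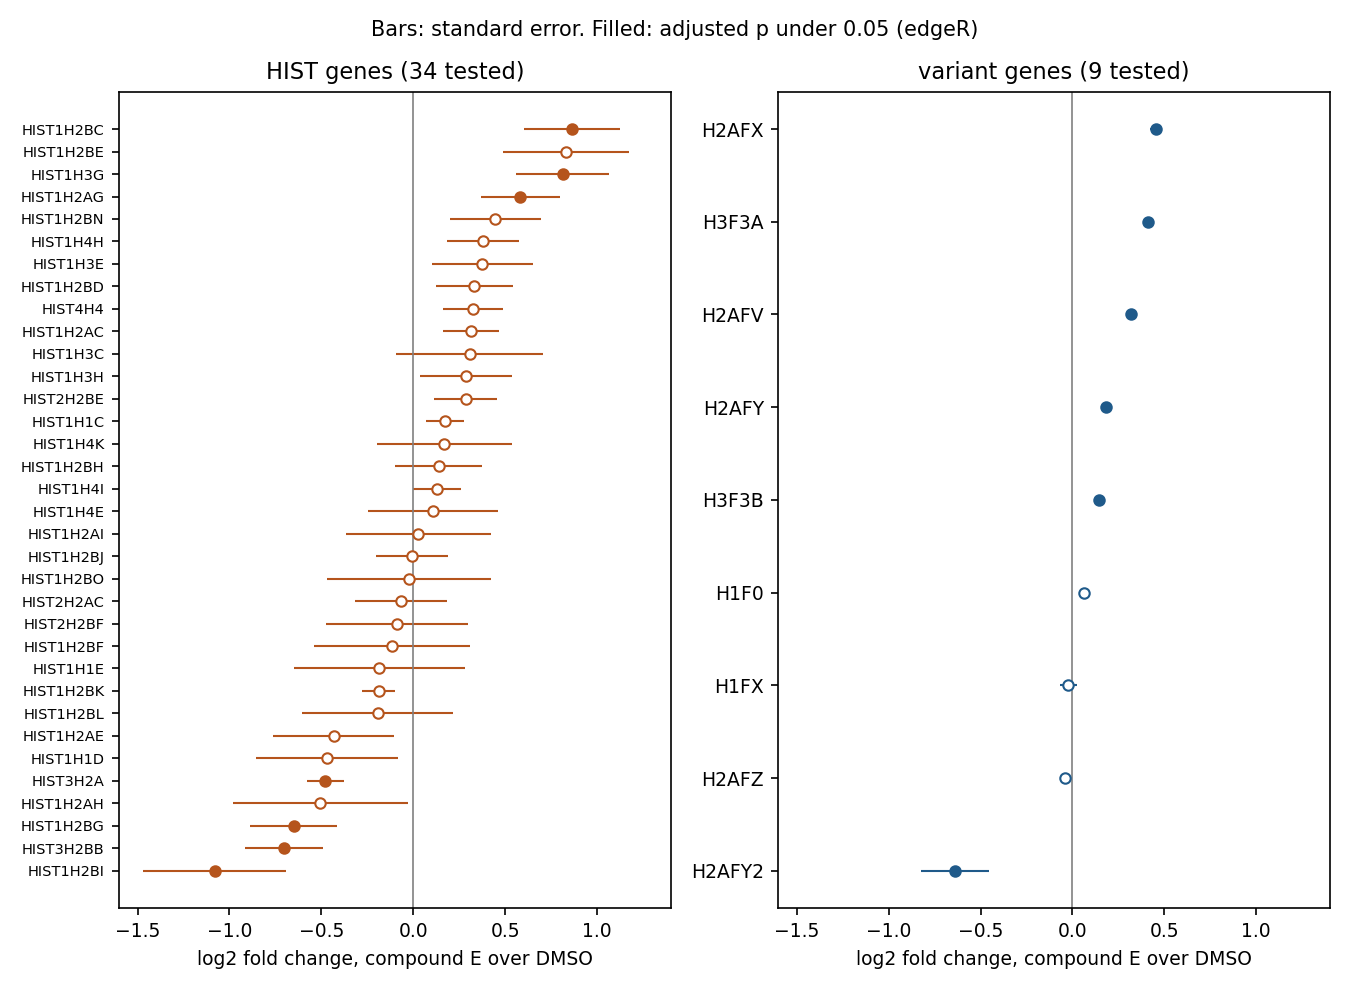
Log2 fold change, compound E over DMSO, of the 34 HIST and 9 variant genes tested (points, with the standard error as a bar), filled where the edgeR adjusted p is under 0.05. Standard errors reach 0.48 among HIST genes and 0.18 among variant genes, and HIST genes run from -1.08 to 0.86, variant genes from -0.64 to 0.45.

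HIST3H2A, at chromosome 1, 228456979 to 228457873 on the minus strand, gave the firmest change. It measured 10.6, 10.7 and 12.0 CPM with DMSO and 7.99, 8.24 and 7.65 CPM with compound E, so each DMSO library lay above each compound E library. The fall was 1.39-fold (log2 -0.48 ± 0.10 SE, edgeR adjusted p = 0.000216) and it passed in each of 17 alternative settings. Its neighbour HIST3H2BB, an H2B gene at 228458107 to 228460470 on the plus strand, measured 3.57, 2.62 and 2.37 CPM with DMSO and 1.70, 1.55 and 2.02 CPM with compound E, again without overlap. It fell 1.63-fold (log2 -0.70 ± 0.21 SE, edgeR adjusted p = 0.00735). Without DMSO replicate 1, in which it was highest, its edgeR adjusted p was 0.0968.

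The pair is transcribed away from a shared stretch of 233 bases, chr1:228457874-228458106, so 1 sequence holds the promoter side of both genes that fell. The 250 bases before the start of HIST3H2A, from RefSeq on GRCh38.p14, chr1:228457874-228458123, minus strand, hold that whole stretch, with CCAAT boxes (CCAAT, or ATTGG for the other strand) in capitals:
HIST3H2A: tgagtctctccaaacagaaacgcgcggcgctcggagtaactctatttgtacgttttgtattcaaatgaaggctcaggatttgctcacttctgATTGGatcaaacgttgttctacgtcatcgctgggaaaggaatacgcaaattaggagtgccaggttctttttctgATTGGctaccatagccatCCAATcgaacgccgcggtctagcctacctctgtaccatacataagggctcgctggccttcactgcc
A CCAAT box was present in the promoters, 250 bases before to 50 after the start, of 47 of the 57 HIST genes matched (82.5%), of 6 of the 8 variant genes matched (75.0%) and of 34.6% of all 35116 promoters. TATAAA on either strand was in 66.7% of the HIST promoters, 4 of the 8 variant promoters and 11.5% of all. The octamer ATTTGCAT on either strand was in 36.8% of the HIST promoters, 1 of the 8 variant promoters and 1.77% of all. These are matches of letters only, and no binding was measured. In spite of the shared stretch, the levels of the pair differed, at 10.6 FPKM for HIST3H2A and 0.968 FPKM for HIST3H2BB.

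Other HIST genes changed at levels near or below 3 CPM. HIST1H2BC, an H2B gene, measured 1.30, 0.706 and 1.56 CPM with DMSO and 2.41, 2.32 and 1.70 CPM with compound E, without overlap. It rose 1.82-fold (log2 0.86 ± 0.26 SE, edgeR adjusted p = 0.00769, or 0.0924 without DMSO replicate 2). HIST1H3G, an H3 gene, measured 0.829, 1.61 and 1.62 CPM with DMSO and 3.06, 1.71 and 2.34 CPM with compound E (log2 0.81 ± 0.25 SE, edgeR adjusted p = 0.00967). Its adjusted p from edgeR was 0.0968 without DMSO replicate 1 and 0.107 without compound E replicate 1. In HIST1H2AG the groups overlapped, at 1.30, 2.07 and 2.48 CPM with DMSO and 3.06, 3.26 and 2.39 CPM with compound E. Its rise (log2 0.58 ± 0.22 SE, edgeR adjusted p = 0.0300) did not pass in 7 of the alternative settings, with adjusted p of 0.227 from edgeR without DMSO replicate 1, 0.0830 without compound E replicate 1 and 0.104 without compound E replicate 2.

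At these levels 2 H2B genes fell, and both lost the call when single libraries were left out. HIST1H2BI measured 0.932, 0.757 and 0.867 CPM with DMSO and 0.383, 0.442 and 0.372 CPM with compound E, without overlap, and fell 2.12-fold (log2 -1.08 ± 0.39 SE, edgeR adjusted p = 0.0248). With DMSO replicate 1 or 3 or any compound E library left out, its edgeR adjusted p lay between 0.0513 and 0.0906. HIST1H2BG measured 1.71, 3.38 and 3.41 CPM with DMSO and 2.02, 2.10 and 1.28 CPM with compound E, so DMSO replicate 1 lay among the compound E libraries. Its fall (log2 -0.65 ± 0.24 SE, edgeR adjusted p = 0.0263) did not pass without DMSO replicate 2 (0.170), DMSO replicate 3 (0.129) or compound E replicate 3 (0.170).

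**Figure D4:**
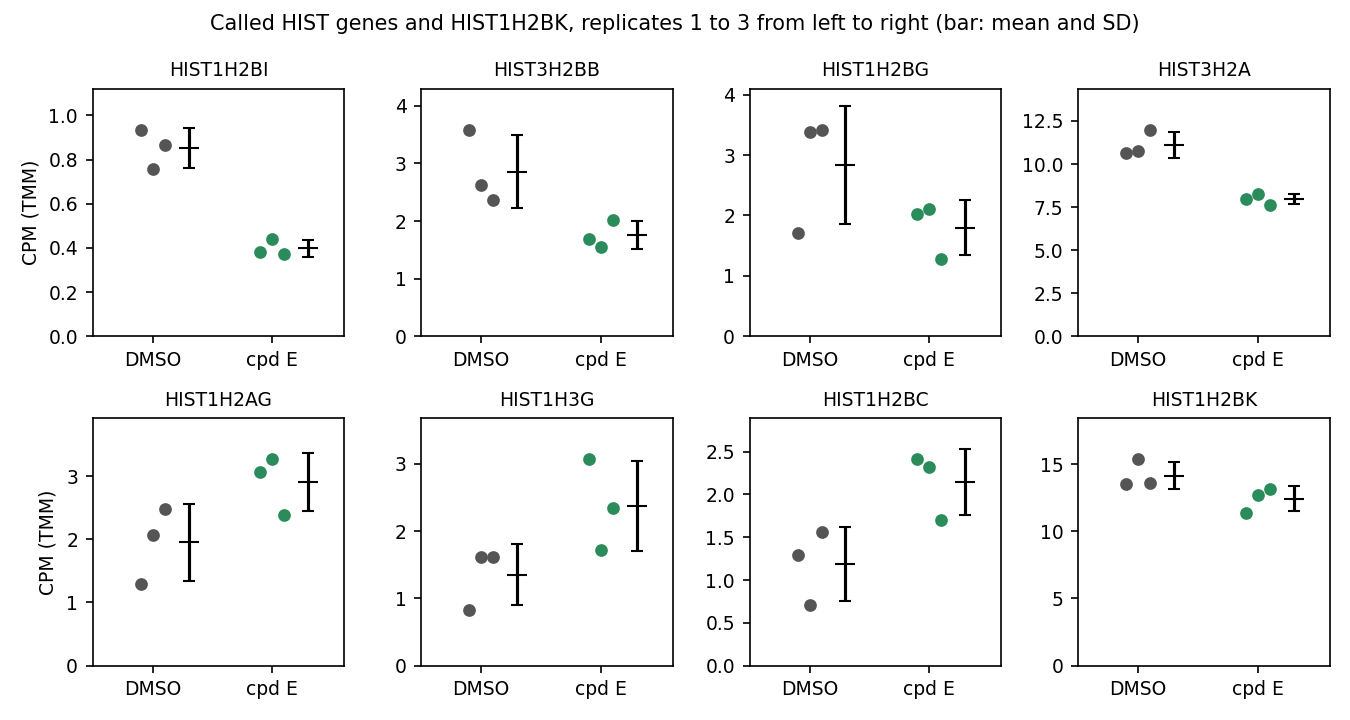
CPM in each library (points, replicates 1 to 3 from left to right, axis from 0) of the 7 HIST genes called and of HIST1H2BK, with mean and SD (bars, n = 3 per group). The groups are apart for HIST1H2BI, HIST3H2BB, HIST3H2A, HIST1H3G, HIST1H2BC and HIST1H2BK and overlap for HIST1H2BG and HIST1H2AG.

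The most abundant HIST genes other than HIST3H2A did not pass. HIST1H2BK measured 13.5, 15.3 and 13.6 CPM with DMSO and 11.4, 12.7 and 13.2 CPM with compound E, without overlap (log2 -0.19 ± 0.09 SE, edgeR adjusted p = 0.0925). HIST1H1C measured 9.12, 9.49 and 12.5 CPM with DMSO and 11.4, 11.3 and 12.1 CPM with compound E, so DMSO replicate 3 was its highest library (log2 0.17 ± 0.10 SE, edgeR adjusted p = 0.207). Without that library HIST1H1C passed, at log2 0.32 ± 0.11 SE and an edgeR adjusted p of 0.0210. HIST1H4I, HIST2H2AC, HIST1H2BJ, HIST1H2BD, HIST1H2AC, HIST1H4K and HIST1H2AE had log2 fold changes of 0.13, -0.07, -0.01, 0.33, 0.31, 0.17 and -0.43, with edgeR adjusted p from 0.105 to 0.985. With DMSO replicate 3 left out, 8 HIST genes passed: HIST1H1C, HIST1H2AG, HIST1H2BC, HIST1H2BD, HIST1H2BN and HIST1H3G rose, and HIST3H2A and HIST3H2BB fell. Of the 17393 genes tested in that fit, 2880 rose and 2863 fell.

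Calls were also counted by the annotated end of the transcript, and the difference between these classes was not tested. Of all genes tested 18.9% rose and 19.4% fell, and of those in the CPM range of the tested HIST genes 8.08% and 14.4%. Counts over all genes without DMSO replicate 3 are given above. Of the 16 tested HIST genes with a poly(A) signal, 3 rose and 1 fell, the median log2 fold change was 0.32 and 13 were above 0. Without DMSO replicate 3 these genes gave 5 that rose, 1 that fell, a median of 0.45 and 15 above 0. Among the 18 without one, 0 rose and 3 fell, the median was -0.15 and 6 were above 0. Without DMSO replicate 3, the library in which the genes without a signal were most often highest, 1 of the 18 rose, 1 fell, the median turned to 0.11 and 12 were above 0, so its sign rested on that library. By class, the medians were -0.18 for 3 H1 genes, -0.07 for 7 H2A genes, -0.02 for 15 H2B genes, 0.34 for 4 H3 genes and 0.17 for 5 H4 genes, and 0 of the H1 and H4 genes passed. Without DMSO replicate 3 these medians were 0.32, 0.19, 0.11, 0.63 and 0.38, so the negative medians of H1, H2A and H2B rested on that library, and 1 H1 gene passed. All 4 H3 and all 5 H4 genes tested had a log2 fold change above 0 with and without it. Most of the 13 H3 and 15 H4 genes had too few counts to be tested. Over all of them the CPM sums with compound E were 1.11 (H3) and 1.10 (H4) times those with DMSO. On the FPKM scale the mean sums went from 9.65 to 8.41 (H3) and from 15.0 to 14.4 (H4). Against DMSO replicates 1 and 2 the FPKM sums were 1.23 and 1.13 times as high.

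Neighbouring H2A and H2B genes that share a start region, as the HIST3 pair does, did not both pass in any other pair with both genes tested. Some pairs could not both pass, because a gene of the pair was not tested. These were HIST1H2AA and HIST1H2BA, HIST1H2AD and HIST1H2BF, HIST1H2AJ and HIST1H2BM, and HIST1H2AM and HIST1H2BO. In HIST1H2BC and HIST1H2AC, 218 bases apart, log2 fold changes were 0.86 (called) and 0.31 (not called). In HIST1H2BG and HIST1H2AE, 282 bases apart, they were -0.65 (called) and -0.43 (not called), and in HIST1H2BJ and HIST1H2AG, 291 bases apart, -0.01 (not called) and 0.58 (called). Neither HIST1H2BK and HIST1H2AH (-0.19 and -0.51) nor HIST2H2BE and HIST2H2AC (0.28 and -0.07) passed. Levels within a pair also differed, by 27.7 times in FPKM between HIST1H2BK at 34.6 and HIST1H2AH at 1.25, and by 1.22 times between HIST1H2AC and HIST1H2BC.

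Most variant genes tested changed, by small amounts with small errors. Of the 12, 9 were tested and 6 passed, 5 upwards and 1 downwards, where 38.3% of all genes tested passed, and in 7 of 9 the groups did not overlap, where 46.8% of all genes had no overlap. Among the 798 genes at or above the level of the lowest of the 8 abundant variant genes, 221 CPM, 73.6% passed and 41.0% rose. Of those 8 variant genes 5 passed, each of them upwards, so their share called was not above that of genes of like level. The share without overlap was not taken at like level. The ninth, H2AFY2, was much lower in level and fell. H3F3C, H2AFJ and H1FNT had 11, 5 and 47 counts in all and were not tested.

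Both genes of H3.3, the H3 variant placed outside replication, rose. H3F3A lies at chr1:226061851-226072001 (plus strand) and H3F3B at chr17:75776434-75785893 (minus strand). H3F3A measured 437, 439.6 and 441 CPM with DMSO and 581, 585 and 584 CPM with compound E, a 1.33-fold rise (log2 0.41 ± 0.02 SE, edgeR adjusted p = 6.93e-17). H3F3B measured 803, 794 and 799.5 CPM with DMSO and 890.4, 888 and 873 CPM with compound E, a 1.11-fold rise (log2 0.15 ± 0.02 SE, edgeR adjusted p = 2.87e-06). In both genes the libraries of a group lay close together and far from the other group. Their proteins are identical, and together they gave 1238 ± 4.07 CPM with DMSO and 1467 ± 8.64 CPM with compound E (SD, n = 3 each). On the FPKM scale H3.3 summed to 267 ± 0.860 with DMSO and 328 ± 1.38 with compound E, while the 13 HIST genes for H3 summed to 6.21, 7.48 and 15.3 FPKM with DMSO and to 8.52, 8.52 and 8.18 with compound E. The HIST sum for H3 thus overlapped between the groups, and the compound E mean was 1.23 times the mean of DMSO replicates 1 and 2.

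The genes of H2A.Z, the variant at promoters and enhancers, differed from each other. H2AFV measured 416, 422 and 426 CPM with DMSO and 520.0, 529.6 and 529 CPM with compound E, and rose 1.25-fold (log2 0.32 ± 0.03 SE, edgeR adjusted p = 1.78e-13). H2AFZ measured 445, 450.0 and 439.9 CPM with DMSO and 416, 452 and 428 CPM with compound E (log2 -0.04 ± 0.03 SE, edgeR adjusted p = 0.252), and its groups overlap. Without compound E replicate 2, its highest library, H2AFZ passed at log2 -0.07 (edgeR adjusted p = 0.0365). The levels of both were close on the CPM scale, but per length H2AFZ was the highest histone gene of all, at 189 FPKM, and H2AFV stood at 99.1 FPKM. That ranking rests on the deposited gene lengths, 2303 bases for H2AFZ and 4749 for H2AFV.

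H2AFX, the gene of the H2A variant that is phosphorylated at DNA breaks, had the largest rise among the variant genes. It measured 185, 192 and 183 CPM with DMSO and 252, 248 and 267 CPM with compound E, 1.37-fold higher with no overlap (log2 0.45 ± 0.03 SE, edgeR adjusted p = 2.88e-15). Its promoter is shown for that rise, and its CCAAT and TATAAA letters are among those counted above for 6 and 4 of the 8 variant promoters (RefSeq, GRCh38.p14, chr11:119095466-119095715, minus strand, with CCAAT boxes on both strands and TATAAA in capitals):
H2AFX: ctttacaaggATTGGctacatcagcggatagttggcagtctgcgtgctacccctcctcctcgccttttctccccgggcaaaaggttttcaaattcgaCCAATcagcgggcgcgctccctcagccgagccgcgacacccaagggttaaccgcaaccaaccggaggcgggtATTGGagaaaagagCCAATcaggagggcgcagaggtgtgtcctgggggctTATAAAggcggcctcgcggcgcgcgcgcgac

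The macroH2A genes, whose proteins carry a large extra domain and mark silent chromatin, went opposite ways. H2AFY measured 448, 430.3 and 428 CPM with DMSO and 503, 497 and 482 CPM with compound E, and rose 1.13-fold (log2 0.18 ± 0.03 SE, edgeR adjusted p = 5.70e-07). H2AFY2 was far lower, at 4.56, 3.48 and 3.47 CPM with DMSO and 2.08, 2.77 and 2.55 CPM with compound E, and fell 1.56-fold (log2 -0.64 ± 0.18 SE, edgeR adjusted p = 0.00494). The groups did not overlap in either gene, but without DMSO replicate 1 the edgeR adjusted p of H2AFY2 was 0.0568.

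The linker histone variants did not pass. H1F0, the gene of H1.0, which gathers in non-dividing cells, measured 222, 231 and 226 CPM with DMSO and 237, 234 and 238 CPM with compound E (log2 0.06 ± 0.03 SE, edgeR adjusted p = 0.0852), and its groups did not overlap. H1FX measured 239, 305 and 273 CPM with DMSO and 265, 252 and 287 CPM with compound E (log2 -0.02 ± 0.05 SE, edgeR adjusted p = 0.735). It varied most among the abundant variant genes, and without DMSO replicate 1, its lowest library, it passed at log2 -0.11 (edgeR adjusted p = 0.0342). The rises of H3F3A, H3F3B, H2AFV, H2AFX and H2AFY passed in each of the 17 alternative settings.

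**Figure D5:**
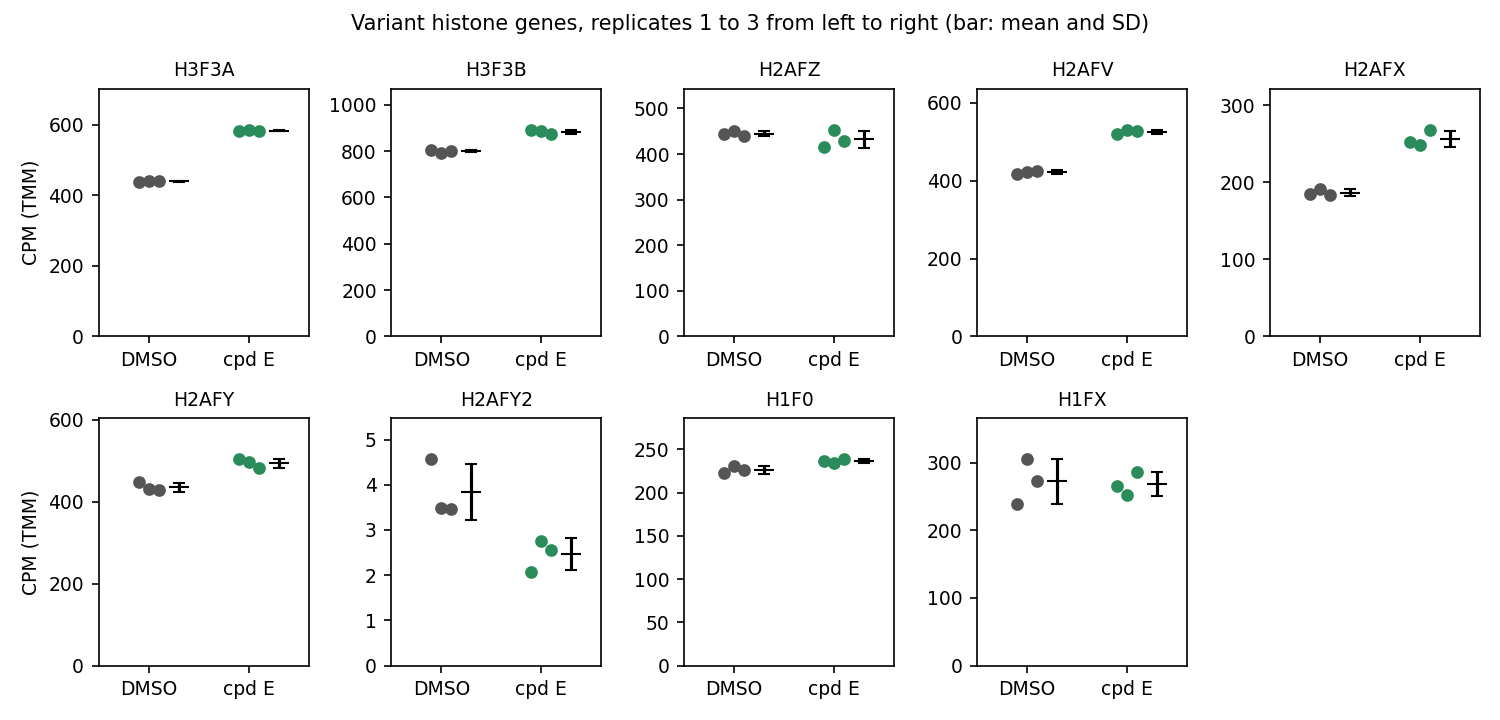
CPM in each library (points, replicates 1 to 3 from left to right, axis from 0) of the 9 variant genes tested, with mean and SD (bars, n = 3 per group). The compound E libraries lie above the DMSO libraries for H3F3A, H3F3B, H2AFV, H2AFX, H2AFY and H1F0, below them for H2AFY2, and among them for H2AFZ and H1FX.

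Genes that make histone mRNA mostly had small changes. Of 19 genes for histone transcription, 3' end formation and decay, 7 rose and 2 fell, where 18.9% of all genes tested rose and 19.4% fell, and the median log2 fold change was 0.05. SLBP, the protein that binds the stem-loop, rose from 129 ± 4.18 to 153 ± 2.51 CPM (SD, n = 3 each; log2 0.25 ± 0.03 SE, edgeR adjusted p = 4.73e-08). SRRT, a partner of the cap-binding complex, NCBP2, a subunit of that complex, LSM1, a decay factor, and UPF1, the decay helicase, rose by log2 0.42, 0.29, 0.26 and 0.14. LSM11, a subunit of the U7 snRNP that directs the cut, fell by 0.33 on the log2 scale, and SYMPK, the scaffold of the cleavage complex, by 0.12. NPAT itself was at 63.4 ± 0.958 and 65.2 ± 3.11 CPM and did not pass (log2 0.04, edgeR adjusted p = 0.489).

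Of 24 histone chaperones and their partners, 12 rose and 6 fell, with a median of 0.07. Of all genes tested 38.3% passed, and of those at or above 221 CPM 73.6%. Many of these 24 genes lay below that level, and no share was taken at their own level. ANP32E, which removes H2A.Z from chromatin, and HJURP, which places CENP-A, rose by log2 0.44 and 0.42. ASF1B, RBBP7 and RBBP4, which handle H3 and H4, also rose (0.27, 0.21 and 0.16). HIRA, the chaperone that places H3.3 outside replication, fell from 45.1 ± 3.57 to 32.4 ± 0.573 CPM (SD, n = 3 each; log2 -0.48 ± 0.06 SE, edgeR adjusted p = 4.08e-09), while the H3.3 genes rose. NAP1L1 (H2A and H2B), MCM2 (H3 and H4 at forks), SSRP1 of the FACT complex and ATRX fell by 0.30, 0.25, 0.16 and 0.16 on the log2 scale. The fall of ATRX did not pass with limma on FPKM (adjusted p from 0.0882 to 0.186).

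S phase, when HIST genes are transcribed, was followed by 24 further genes, of which 10 rose and 8 fell, with a median of 0.04. Of all genes tested 38.3% passed in either direction, and of those at or above 221 CPM 73.6%. Many of the 24 lay below that level, and no share was taken at their own level. RRM2 of ribonucleotide reductase, the cyclins CCNE2 and CCNA2, UHRF1 and FEN1 rose (log2 0.47, 0.59, 0.35, 0.20 and 0.19). CDT1, the licensing factor, MCM5, MCM7 and MCM6 of the replicative helicase and TK1 fell (log2 -0.52, -0.17, -0.13, -0.15 and -0.22). These 24 genes summed to 7733 to 7805 raw CPM with DMSO and to 7755 to 7804 with compound E, so the groups overlap in their sum. The HIST sum overlapped only through DMSO replicate 3, the other DMSO libraries lying below every compound E library.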

How the data were processed

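RNA sequencing of 3 DMSO and 3 compound E libraries was compared. The authors deposited whole-number, unnormalised read counts per gene. They also deposited FPKM values for the same genes and libraries. The submitters' processing notes name HISAT2 2.0.5, featureCounts 1.5.0-p3 and DESeq2 1.16.1, without stating what each was used for. Not given in the sources used here are the genome build, the annotation, the strand setting and the handling of reads with several matches. All 58735 identifiers had the same position in GENCODE 29, and coordinates are on GRCh38.

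Counts were tested with edgeR 4.0.16 in R 4.3.3 (filterByExpr, TMM, quasi-likelihood F-test with treatment as the only term, Benjamini-Hochberg adjustment over 16926 genes, threshold 0.05). Standard errors are the log2 fold change divided by the square root of F. On simulated counts for these 16926 genes, 50% of the genes changed 1.2-fold, 64% at 1.5-fold and 96% at 2-fold were recovered, and 6.06% of calls were false. The simulation gave every gene the same dispersion and changed 50 genes at each fold, drawn over all levels, far fewer than were called here. Its rates are therefore not those of genes at the low level of the HIST genes. The biological coefficient of variation was 2.72%. The alternatives were 3 other scalings, no filter, 5 CPM in 3 libraries, DESeq2 1.42.0, limma 3.58.1 (voom, and log2 FPKM with pseudocounts of 1 and 0.1), the replicate number as a block and each library left out. Figures were drawn with matplotlib 3.10.9.

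The text names called members, all tested variant genes, the 10 HIST genes highest in FPKM, their divergent pairs (gap of at most 1000 bases) and, in each partner list, up to 5 called genes per direction with the smallest p. Members and lists were chosen with earlier results of these data known. The split by poly(A) signal, the background of like level, the medians and H3 sum without DMSO replicate 3 and the marker sum without RAG1 were added after the values were seen. Promoters were those of RefSeq (65 of 77 members matched by symbol).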

Additional observations from a re-analysis of the deposited data

How the results depend on the processing

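Of 41 named genes with a call, 32 kept it with its direction in every alternative that gave a value. The count of HIST genes called was 7, and became 4 with DESeq2, 2 with limma on log2(FPKM + 1) without a filter and 1 with a filter of 5 CPM in 3 libraries, under which only 4 HIST genes were tested. Genes called over the whole table were 6484, and 4002 with limma on log2(FPKM + 1) without a filter. The ratio of HIST to variant summed FPKM, 0.120 on average, was 0.0997 with only HIST genes under 1000 bases. With each library left out in turn, calls ranged from 4 to 8 for HIST genes (4 without DMSO replicate 1 or compound E replicate 1), from 6 to 7 for variant genes, from 5671 to 6068 over all genes and from 42 to 46 over the partner lists (46 in the reported fit). The ratio of compound E to DMSO ranged from 0.941 to 1.10 for the HIST sum and from 1.14 to 1.15 for the variant sum, and the FPKM ratio from 0.112 to 0.123. SNORD3A (log2 -1.84, edgeR adjusted p = 0.00202) ranged from -2.33 to 0.14 with 1 library left out, the change of sign being that without DMSO replicate 3, its highest library, and did not pass with DESeq2 (adjusted p = 0.197) or voom (0.184). With the replicate number as a block, 7 HIST genes, 6 variant genes and 6138 genes in all were called. Deviations of same-numbered libraries, over all tested genes, correlated at 0.0103, -0.0191 and 0.000118. Libraries of different numbers correlated at -0.0202 to 0.0207. No pairing was thus seen, but counting noise in genes of few counts could hide one, so the check cannot exclude it. The block changed no call of a histone gene. Depth limits the HIST genes: 31 of 65 had 1 to 68 counts in all and were not tested.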
